A study of Mus musculus with 6 samples.

Results

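The steroid dehydrogenases and reductases examined here were 10 genes, Hsd3b2, Hsd3b3, Hsd3b5, Hsd11b1, Hsd17b2, Hsd17b6, Hsd17b11, Hsd17b13, Akr1c6 and Srd5a1, out of 53599 gene symbols in the count table, 24036 of them with reads in 1 library or more. They were selected on the measured values of the comparison described below, empty vector (EV) against Sox4 hepatocytes, so their differences between the groups are a description and carry no test. All 10 passed the filter on low counts, with at least 798 counts in every EV library for the gene with the fewest counts. Hepatocyte RNA was sequenced 4 days after mice received an adeno-associated virus of serotype 8 (AAV8), which delivers its DNA to the liver. The 3 EV libraries came from hepatocytes given AAV8-TBG-Cre, with the genotype WT in the labels, and the 3 Sox4 libraries from hepatocytes given AAV8-TBG-HA-Sox4-P2A-Cre, with the genotype Sox4. Both groups were male Rosa26-LSL-Cas9-EGFP mice a few weeks of age on a C57BL/6J background, so Cre switched on Cas9 and EGFP in both. The TBG promoter drives both vectors in hepatocytes, which were freed with liberase and then purified over a Percoll gradient.

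The liver takes up steroids from blood and inactivates, interconverts or excretes them. Hydroxysteroid dehydrogenases (HSDs) oxidise or reduce the oxygen groups at fixed positions of the steroid ring, which switches a hormone between its active and inactive form, and 5α-reductases and aldo-keto reductases then reduce the ring for disposal. Some enzymes that carry an HSD name act mainly on retinoids, bile acids or lipids, and Hsd17b11 and Hsd17b13 sit on the surface of lipid droplets.

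Sequences around the start sites are shown first, because 3 of the genes are close copies that lie side by side. Promoter windows of 300 bases, from 250 bases before to 50 after the annotated start, were taken from RefSeq on GRCm38.p6, a different build from the GRCm39 of the counts, and were found for 9 of the 10 genes. Capitals mark CAAAG or its reverse complement CTTTG, with the added base where ACAAAG is complete. They are letters of the binding motif of the hepatocyte factor HNF4A and also the core of 1 form of the SOX motif, ACAAAG. Hsd3b5, Hsd3b2 and Hsd3b3 (the window of the first of 2 annotated starts by coordinate) are given for comparison of the copies, Hsd11b1 as the strongly lowered gene outside that cluster, and Srd5a1 as the gene with the SOX letters.
Hsd3b5 (chr3:98645485-98645784, minus strand): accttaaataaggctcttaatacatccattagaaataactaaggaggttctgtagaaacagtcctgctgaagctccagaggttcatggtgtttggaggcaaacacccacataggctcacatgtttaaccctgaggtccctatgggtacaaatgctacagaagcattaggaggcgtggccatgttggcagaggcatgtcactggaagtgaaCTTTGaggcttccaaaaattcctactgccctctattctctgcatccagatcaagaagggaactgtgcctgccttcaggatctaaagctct
Hsd3b2 (chr3:98724494-98724793, minus strand): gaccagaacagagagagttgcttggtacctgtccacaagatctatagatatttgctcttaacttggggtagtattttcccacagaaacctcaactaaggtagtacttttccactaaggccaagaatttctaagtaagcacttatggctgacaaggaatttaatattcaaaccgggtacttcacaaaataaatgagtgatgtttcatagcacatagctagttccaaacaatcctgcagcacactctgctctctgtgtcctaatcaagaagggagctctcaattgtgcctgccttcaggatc
Hsd3b3 (chr3:98762361-98762660, minus strand): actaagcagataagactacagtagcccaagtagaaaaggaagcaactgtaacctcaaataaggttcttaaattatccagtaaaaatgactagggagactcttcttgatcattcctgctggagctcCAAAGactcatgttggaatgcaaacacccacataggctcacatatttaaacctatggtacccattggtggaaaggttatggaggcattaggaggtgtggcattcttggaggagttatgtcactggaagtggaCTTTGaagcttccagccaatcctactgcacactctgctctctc
Hsd11b1 (chr1:193242311-193242610, minus strand): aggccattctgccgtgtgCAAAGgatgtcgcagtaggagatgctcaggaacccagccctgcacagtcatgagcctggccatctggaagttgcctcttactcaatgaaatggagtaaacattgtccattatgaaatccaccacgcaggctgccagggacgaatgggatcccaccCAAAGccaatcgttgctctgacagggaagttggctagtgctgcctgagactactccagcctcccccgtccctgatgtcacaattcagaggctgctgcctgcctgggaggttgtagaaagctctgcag
Srd5a1 (chr13:69611414-69611713, minus strand): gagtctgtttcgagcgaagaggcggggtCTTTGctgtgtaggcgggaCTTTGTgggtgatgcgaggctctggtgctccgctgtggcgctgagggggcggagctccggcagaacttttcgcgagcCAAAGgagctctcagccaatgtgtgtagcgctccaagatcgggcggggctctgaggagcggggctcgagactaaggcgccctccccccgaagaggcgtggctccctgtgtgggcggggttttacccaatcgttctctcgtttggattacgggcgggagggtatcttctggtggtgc

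ACAAAG or its reverse complement was present in 1 of the 9 genes, Srd5a1, at -203 to -198 relative to the start, where its letters overlap 1 of the 3 CAAAG matches of that window. Of all 32851 RefSeq windows of this length, 18.7% held ACAAAG on either strand. CAAAG occurred in 6 of the 9 genes and in 53.9% of all windows. Hsd3b5 had 1 match, at -40 to -36, Hsd3b3 had 2 matches in each of its windows and Hsd3b2 had none in its window. Hsd11b1 had 2 and Akr1c6 had 1. The most matches, 4, were in Hsd17b13, which lay near the EV level. Hsd17b6, lower in Sox4, had 0 in both of its windows, and Hsd17b11, near the EV level, also had 0. A relation between matches and levels was not tested. The STAT5 motif TTCNNNGAA was found in 0 of the 9 genes and in 8.30% of all windows, and TATAAA in 1 gene, Akr1c6, and in 13.6% of all windows. A match describes letters in a window and is not evidence of binding.

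The annotated starts of Hsd3b3 and Hsd3b5 lie at shifted points of a shared sequence. When the windows were aligned with free ends, Hsd3b3 and Hsd3b5 were 76.3% identical over an overlap of 257 positions, with the Hsd3b5 window beginning 50 bases into that of Hsd3b3. The window of Hsd3b2 was 54.9% identical to that of Hsd3b3 and 57.9% to that of Hsd3b5. The windows of Hsd17b11 and Hsd17b13 gave 55.8% over 156 positions by the same measure. Coding sequences of 1119 bases (GENCODE M21, without the stop codon) were 95.1% identical between Hsd3b2 and Hsd3b3, while Hsd3b5 was 80.8% identical to Hsd3b2 and 80.2% to Hsd3b3. The windows of both Hsd3b3 starts were 99.3% identical to each other.

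As a check of the labels, the delivered gene Sox4 had 2, 0 and 3 counts in the EV libraries 1 to 3 and 21697, 15097 and 11816 in the Sox4 libraries 1 to 3. Total counts per library ranged from 15090629 to 16964860. Levels are given as CPM, counts scaled to 1000000 reads on library sizes scaled by the trimmed mean of M-values (TMM), with SD over 3 libraries a group. In sum the hepatocyte markers gave 142429 to 169512 CPM in EV, against 100175 to 113105 CPM in Sox4. Of the 10 markers, 7 were lower by the edgeR quasi-likelihood test with Benjamini-Hochberg adjustment over all genes. With scaling by library size alone Alb, Serpina1a, Trf and Hnf4a were no longer called, at -0.10, -0.08, -0.27 and -0.12 on the log2 scale. The call of Alb was also lost without EV replicate 2 or 3 and without Sox4 replicate 2. The summed markers of other cells ranged from 67.7 to 85.5 CPM in EV and from 110.5 to 135 CPM in Sox4 for cholangiocytes, from 13.4 to 28.8 and from 29.1 to 67.9 CPM for Kupffer cells, from 19.0 to 28.6 and from 16.2 to 37.9 CPM for endothelial cells and from 10.7 to 49.96 and from 96.0 to 149.9 CPM for stellate cells. Tests passed in the higher direction for 2 of 5 cholangiocyte, 4 of 9 Kupffer, 2 of 8 endothelial and 4 of 5 stellate markers tested, and in the lower direction for 1 endothelial marker. Most of the stellate sum was Reln, at 7.09, 22.6 and 37.5 CPM in EV and 126, 117 and 50.8 CPM in Sox4. The call of Reln was lost without EV replicate 2 and without Sox4 replicate 1 or 2, with a log2 fold change of 2.12 that ranged from 1.68 to 2.69. Lymphoid and neutrophil markers stayed at or below 4.29 CPM, with Ms4a1 and Ly6g at 0 counts in every library. The erythroid list, almost wholly Alas2, ran from 93.0 to 126 CPM in EV, against 4.97 to 15.5 CPM in Sox4. The part of these differences in the results below was not tested.

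Of the 10 genes, 7 had an edgeR adjusted p under 0.05 with a lower level in Sox4, 0 were higher and 3 were not called. Over all 12691 genes tested 55.1% were called in either direction, 26.0% lower and 29.0% higher, and nothing is read from the count of the 10 because the same contrast chose them. All 3 Sox4 libraries lay below all 3 EV libraries for 8 of the 10 genes, which held for 29.9% of all genes, and in no gene did they lie above, which held for 33.1% of all genes. The median log2 fold change was -1.96 over the 10 genes and 0.04 over all genes tested. In bulk samples, fewer cells of a type and less RNA per cell cannot be told apart. When levels were instead divided by the summed hepatocyte markers, a comparison chosen after seeing the data and made with no test, 6 of the 10 genes remained below EV in every Sox4 library, Hsd17b2, Hsd17b11 and Akr1c6 overlapped and Hsd17b13 lay above.

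**Figure D1:**
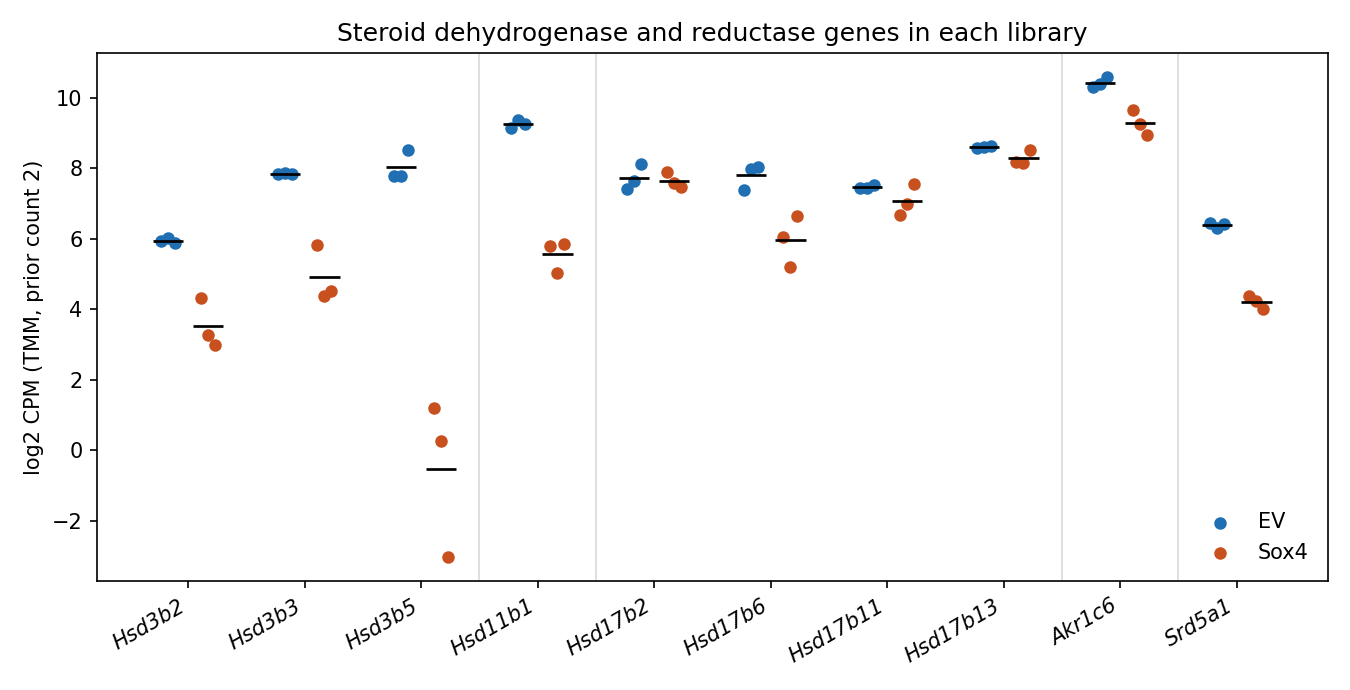
Level of each of the 10 genes in each library, as log2 CPM with a prior count of 2 on the vertical axis, in EV (blue) and Sox4 (orange) hepatocytes. Points are libraries and bars are means of 3; the Hsd3b, Hsd11b1, Hsd17b6, Akr1c6 and Srd5a1 points are separate between groups and so are those of Hsd17b13, and the lowest Hsd3b5 point is a library with 0 counts.

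The 3β-HSD genes were the first group. Enzymes of this family oxidise the 3β-hydroxyl group of steroids and shift the neighbouring double bond, the step that makes active hormones from their precursors in gonad and adrenal, whereas the mouse liver form Hsd3b5 acts as a 3-ketosteroid reductase and is known for its higher expression in male liver. Hsd3b5 measured 219, 221 and 369.6 CPM in EV 1 to 3 and 2.16, 1.07 and 0 CPM in Sox4 1 to 3. The Sox4 libraries held 43, 21 and 0 counts against 2848, 2905 and 5089 in EV. One EV library was well above the others, and in Sox4 the gene was nearly or wholly undetected, with no overlap. The means were 269.9 ± 86.3 CPM in EV and 1.08 ± 1.08 CPM in Sox4 (SD, n = 3 each), a ratio of 251. Its fitted log2 fold change of -7.82 (SE 1.31) was the second lowest of the genes tested, with rank 2 of 12691, and it ranged from -8.67 without Sox4 replicate 1 to -7.27 without Sox4 replicate 3. A count of 0 in the third Sox4 library allows at most 3 counts, or 0.152 CPM.

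Hsd3b3, which like Hsd3b2 belongs to the dehydrogenase branch of the family, measured 229, 231 and 228 CPM in EV and 56.3, 20.6 and 22.9 CPM in Sox4. Its EV libraries differed from each other by less than those of any other of the 10 genes, with a coefficient of variation (SD over mean) of 0.794%, and Sox4 1 was above the other two Sox4 libraries. The log2 fold change was -2.78 (SE 0.46), and it was -3.39 without Sox4 replicate 1. Hsd3b2 measured 61.5, 64.9 and 58.3 CPM in EV and 19.9, 9.60 and 7.75 CPM in Sox4. Sox4 1 was again the highest of its group, and the groups did not overlap. The log2 fold change of Hsd3b2 was -2.30 (SE 0.41), with a range from -2.81 without Sox4 replicate 1 to -2.05 without Sox4 replicate 3.

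Together the 3 genes summed to 561 ± 82.1 CPM in EV and 46.8 ± 27.4 CPM in Sox4. Their proportions also differed. In CPM, which does not allow for gene length, Hsd3b5 made up 43.0%, 42.7% and 56.4% of the sum in EV 1 to 3, but 2.75%, 3.43% and 0% in Sox4 1 to 3. The genes differ in length, and per kilobase of annotated exon Hsd3b5 made up 73.0%, 72.6% and 82.3% of the 3 in EV 1 to 3 and 8.93%, 10.6% and 0% in Sox4 1 to 3. On that scale Hsd3b3 held the largest share in Sox4, at 56.5%, 49.5% and 63.0%. Shares per kilobase depend on the annotated lengths, which join all isoforms of a gene. The counts of the 3 genes carry the uncertainty of a copied family. Of all 50-base stretches of the annotated transcripts, 26.9% of those of Hsd3b2, 8.73% of those of Hsd3b3 and 21.2% of those of Hsd3b5 also occur in another gene's transcripts, and how the authors' counting assigned such reads is not given in the sources used here. The opposite-strand gene Zfp697, with 35 to 125 counts, overlaps Hsd3b2 and Hsd3b3 in GENCODE M21.

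The copies next to them had few or no counts. In RefSeq gene order on chromosome 3, Hsd3b5, Hsd3b2 and Hsd3b3 follow each other, with Hsd3b4 and Gm10681 before and Hsd3b6 and Hsd3b1 after. Hsd3b4, Hsd3b6 and Gm10681 were listed at 0 counts in every library. Hsd3b4 has 95.2% coding identity with Hsd3b5, and all of its 50-base stretches (100%) are shared with Gm10681, so a count of 0 does not show that it was not transcribed. Hsd3b1, the gonadal and adrenal form, had 0 counts in each EV library and 12, 4 and 11 in Sox4, below the filter on low counts. Hsd3b7, which acts on bile acid precursors, had between 1 and 7 counts in every library, but 83.1% of its 50-base stretches are shared with other annotated transcripts, and how reads shared in this way were assigned is not stated. The other tested gene of the family, Nsdhl, which takes part in cholesterol synthesis, fell from 133 ± 17.6 to 29.1 ± 13.7 CPM, with edgeR giving -2.19 on the log2 scale (SE 0.49, adjusted p = 0.00264).

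The glucocorticoid system was represented by Hsd11b1, the reductase that regenerates active corticosterone from 11-dehydrocorticosterone within the cell. It measured 566, 659 and 617 CPM in EV and 55.9, 32.3 and 57.5 CPM in Sox4. Every Sox4 library was far below every EV library, and Sox4 2 was the lowest of its group. The means were 614 ± 46.5 and 48.6 ± 14.1 CPM, 12.6-fold apart, with a log2 fold change of -3.66 (SE 0.28). None of the 50-base stretches of Hsd11b1 (0%) occurs in another gene's transcripts. H6pd, which supplies NADPH to Hsd11b1 inside the endoplasmic reticulum, fell from 589 ± 42.7 to 315 ± 48.5 CPM, with edgeR giving -0.90 on the log2 scale (SE 0.15, adjusted p = 0.000732). The glucocorticoid receptor gene Nr3c1 fell from 104 ± 6.29 to 36.3 ± 0.244 CPM, with edgeR giving -1.52 on the log2 scale (SE 0.05, adjusted p = 3.23e-06).

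The 17β-HSD genes differed among themselves. Hsd17b6, which oxidises androgens and retinols at their alcohol groups, measured 167, 254 and 265 CPM in EV and 65.9, 36.7 and 100.1 CPM in Sox4. The lowest EV library was still above the highest Sox4 library, though both groups were spread. The means were 229 ± 53.6 and 67.6 ± 31.8 CPM and the log2 fold change was -1.76 (SE 0.47), a call that was lost without a filter on low counts and without Sox4 replicate 1, where the change was -1.72 and -1.74. Of its 50-base stretches 12.1% occur in other genes, most in Rdh1. Hsd17b2, which inactivates estradiol and testosterone by oxidation, measured 170.2, 198 and 278 CPM in EV and 236, 190.4 and 178 CPM in Sox4. The groups overlapped fully, the lowest and the highest library both being EV. Its log2 fold change of -0.10 (SE 0.24) was the smallest in size of the 10 genes, and it was 0.11 without EV replicate 3.

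The lipid droplet pair Hsd17b13 and Hsd17b11 lay near the EV level. Hsd17b13, a retinol dehydrogenase of the droplet surface, measured 380.4, 387 and 399 CPM in EV and 292, 283 and 371 CPM in Sox4. All Sox4 libraries were below EV, with Sox4 3 close to it. The log2 fold change was -0.30 (SE 0.12) and was not called, but it was -0.43 and called without Sox4 replicate 3. Hsd17b11, which is known to oxidise androstane steroids, measured 172, 174 and 183 CPM in EV and 102, 127 and 187 CPM in Sox4. Here Sox4 3 exceeded every EV library while the other two Sox4 libraries were below. The log2 fold change was -0.35 (SE 0.26), not called, and -0.62 and called without Sox4 replicate 3. With scaling by library size alone the log2 fold changes of Hsd17b2, Hsd17b11 and Hsd17b13 were 0.37, 0.12 and 0.17, so none of the 3 has a fixed direction. The pair are neighbours on chromosome 5 with 66.5% coding identity.

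Among the reductases, Akr1c6, an aldo-keto reductase that reduces 17-ketosteroids in mouse liver, was the most abundant of the 10 genes. It measured 1275, 1354 and 1545 CPM in EV and 805, 616 and 493 CPM in Sox4. The groups did not overlap, with each Sox4 library below the lowest EV library. The means of 1391 ± 138.8 and 638 ± 157 CPM were 2.18-fold apart, with a log2 fold change of -1.12 (SE 0.22). Srd5a1, the 5α-reductase that makes dihydrotestosterone from testosterone and reduces glucocorticoids in liver, measured 86.4, 78.8 and 85.2 CPM in EV and 20.5, 18.8 and 16.0 CPM in Sox4. Both groups were narrow and well apart. Its log2 fold change of -2.17 had the smallest error of the 10 genes (SE 0.11) and lay between -2.25 and -2.07 when single libraries were left out. A same-strand transcript, Gm17108, overlaps Srd5a1, shares 15.1% of its 50-base stretches and had 0 to 6 counts.

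The spread within groups was wider in Sox4. The coefficient of variation was higher in Sox4 than in EV for 9 of the 10 genes, the exception being Hsd17b2, and it was under 10% in EV for 7 of them. Within Sox4, replicate 1 held the highest level for 6 genes and replicate 3 for the other 4, Hsd11b1, Hsd17b6, Hsd17b11 and Hsd17b13. Within EV, replicate 3 was highest for 6 genes and replicate 1 lowest for 7.

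The summed level of the 10 genes was 3659 ± 351 CPM in EV and 1475 ± 164 CPM in Sox4, a ratio of 2.48. In the plot of summed levels the EV columns reach 3327, 3622 and 4027 CPM and the Sox4 columns 1656, 1336 and 1433 CPM. Akr1c6 accounted for 38.3%, 37.4% and 38.4% of the sum in EV 1 to 3 and for 48.6%, 46.1% and 34.4% in Sox4 1 to 3.

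**Figure D2:**
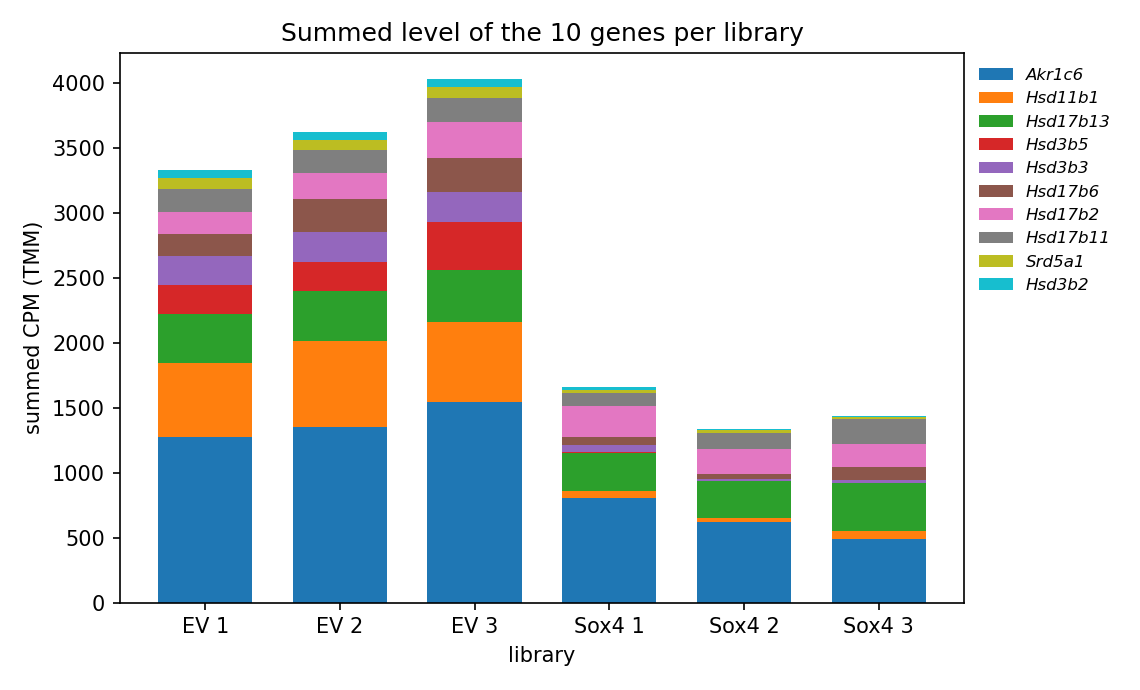
Summed CPM of the 10 genes in each library, with 1 stacked segment a gene, in the order of the EV means from the bottom. The EV columns end between 3327 and 4027 CPM and the Sox4 columns between 1336 and 1656 CPM, and the Hsd3b5 segment is too thin to see in Sox4.

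Levels can be compared between genes only per length, here as CPM per kilobase of the annotated exons (GENCODE M21, all isoforms joined). The joined lengths of Hsd3b2, Hsd3b3 and Hsd3b5 were 3.695, 6.396 and 1.549 kilobases, although their coding sequences are equally long. The place of these genes in the order therefore depends on the annotated isoforms. On the scale of CPM per kilobase Akr1c6 was the highest in EV at 684 ± 68.2 and Hsd3b2 the lowest at 16.7 ± 0.894. Between them, Hsd17b13 at 180.3 ± 4.33, Hsd3b5 at 174 ± 55.7, Hsd17b6 at 145 ± 34.0 and Hsd11b1 at 144 ± 10.9 did not differ beyond their spread as neighbours in the order. Hsd17b2 followed at 112 ± 29.2 and Hsd17b11 at 54.0 ± 1.73, with Hsd3b3 at 35.9 ± 0.285 and Srd5a1 at 28.7 ± 1.40. In Sox4, Akr1c6 at 314 ± 77.4, Hsd17b13 at 146 ± 22.3 and Hsd17b2 at 104.8 ± 15.9 CPM per kilobase led, while Hsd3b5 moved from the third place to the last at 0.695 ± 0.696. Hsd11b1 stood at 11.4 ± 3.32 CPM per kilobase in Sox4, below Hsd17b6 at 42.9 ± 20.2 and Hsd17b11 at 42.5 ± 13.3, whereas in EV it was within the spread of Hsd17b6 and above Hsd17b11.

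**Figure D3:**
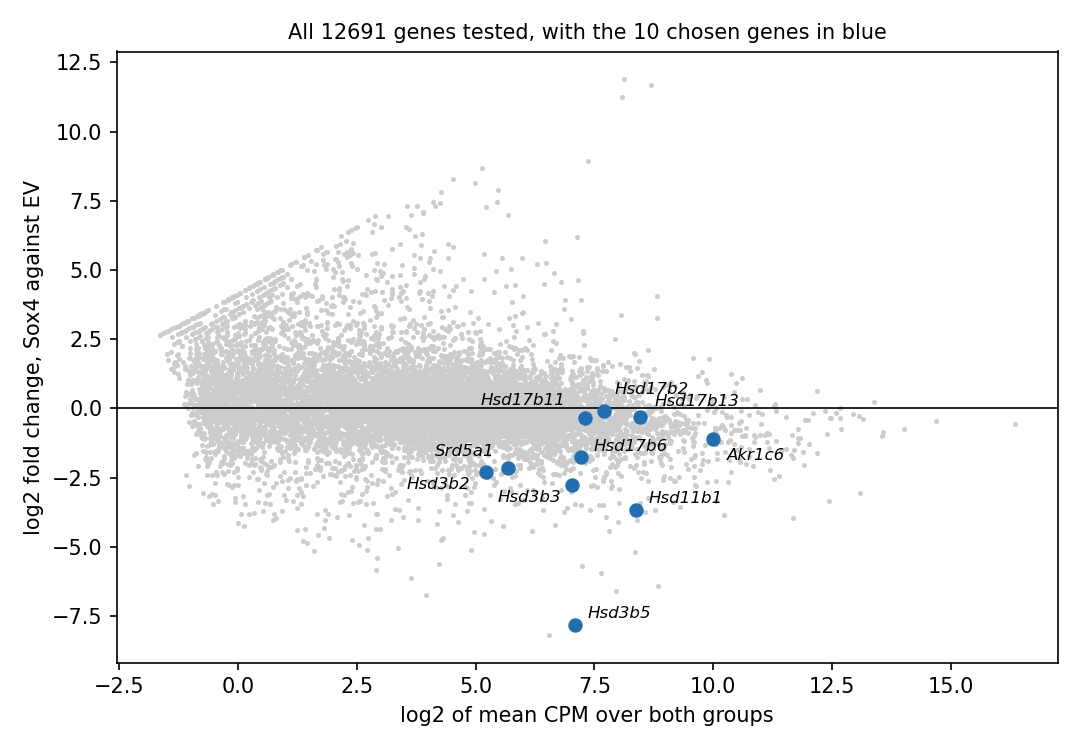
Log2 fold change of Sox4 against EV on the vertical axis and log2 of the mean CPM over both groups on the horizontal axis, for the 12691 genes tested (grey points) and the 10 genes (blue, named). Hsd3b5 at -7.82 lies apart near the bottom, and Hsd17b2, Hsd17b11 and Hsd17b13 lie close to 0.

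The wider steroid pathway was examined to place these genes among other enzymes of the same reactions. Of 62 other listed steroid enzyme genes, 3 were not found in the table, 24 were below the filter and 35 were tested. Of those, 16 were lower, 9 were higher and 10 were not called, with a median log2 fold change of -0.41, beside 26.0% lower and 29.0% higher over all genes. The lists were chosen with earlier results of these data known.

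**Figure D4:**
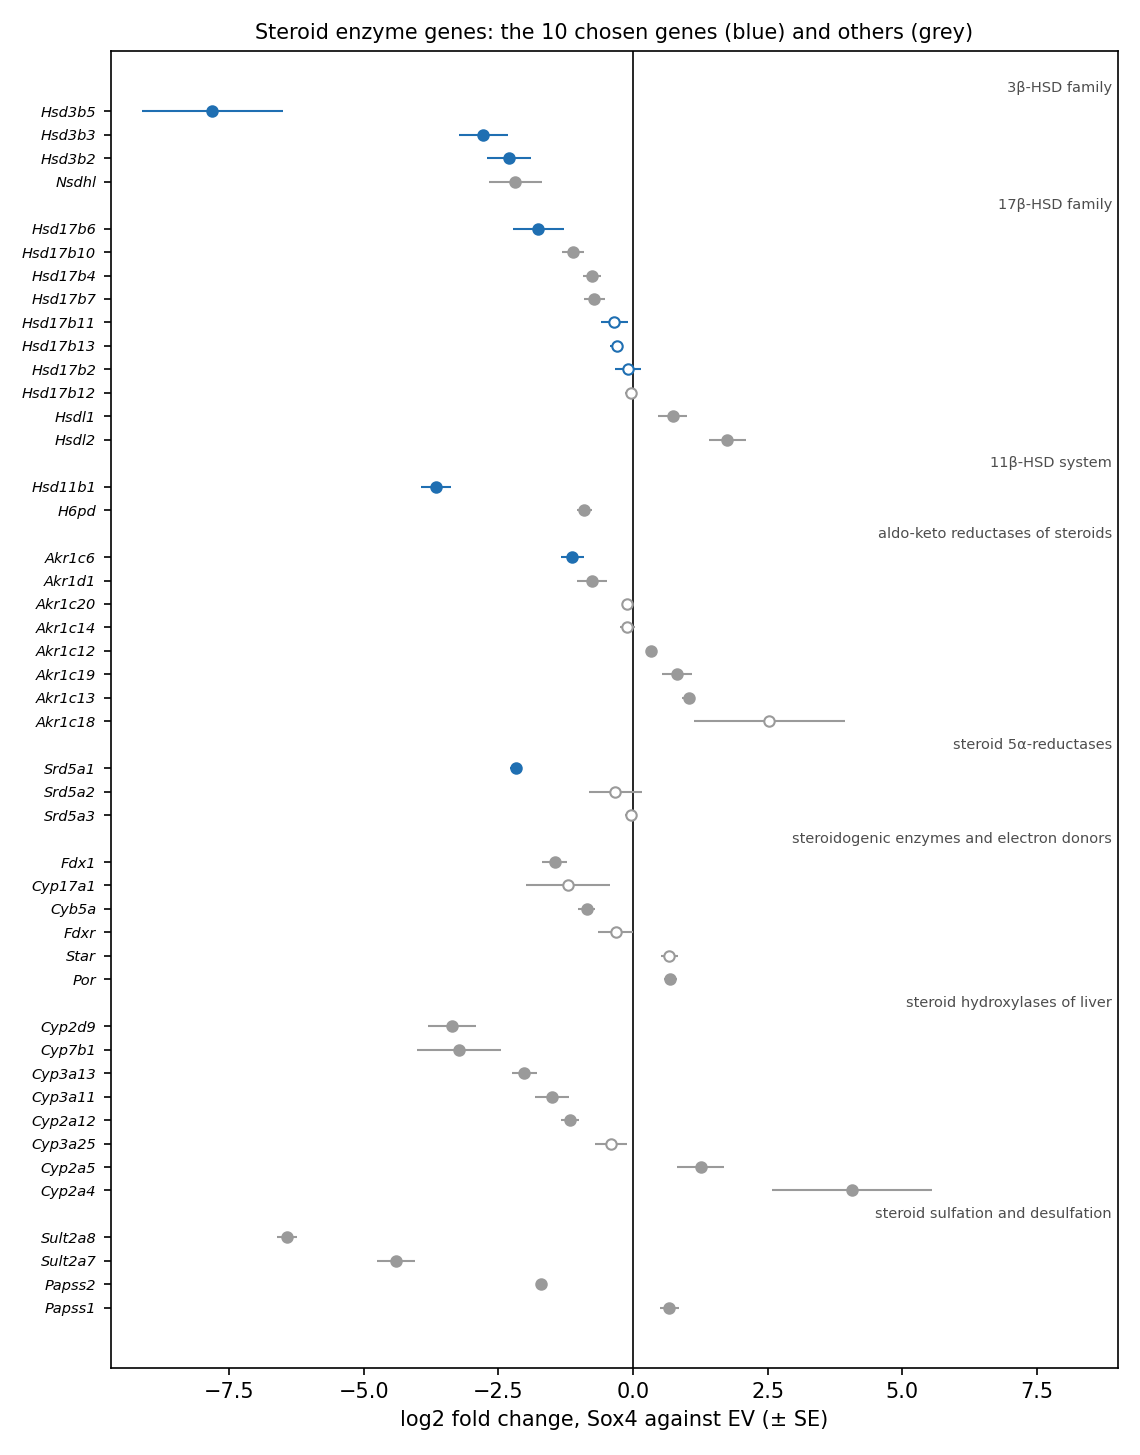
Log2 fold change of Sox4 against EV with its SE for tested steroid enzyme genes, grouped by list, with the 10 genes in blue and the others in grey. Filled points had an edgeR adjusted p under 0.05 and open points did not. Of the 35 grey points 16 are filled on the lower side and 9 on the higher side. The other aldo-keto reductases, all with a higher log2 fold change than Akr1c6, run from values below 0 to values above 0.

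In the 17β-HSD list, which also holds the HSD-like genes Hsdl1 and Hsdl2, 3 of the 6 other genes tested were lower, 2 higher and 1 not called. The 2 higher genes were Hsdl1 and Hsdl2. Hsd17b4, the multifunctional enzyme of peroxisomal β-oxidation, fell from 508 ± 44.0 to 301 ± 53.2 CPM (log2 fold change -0.76, edgeR adjusted p = 0.00250). Hsd17b7, an enzyme of cholesterol synthesis, fell from 119 ± 18.5 to 72.4 ± 13.2 CPM (log2 fold change -0.72). Hsd17b10, a mitochondrial enzyme, fell from 106.7 ± 21.1 to 49.3 ± 7.25 CPM (log2 fold change -1.11). With library size alone Hsd17b4 and Hsd17b7 were no longer called. Hsd17b12, which elongates fatty acids, was at 199 ± 4.09 and 193 ± 25.9 CPM. Hsdl2, a peroxisomal protein of the same fold, rose from 81.9 ± 5.08 to 276 ± 104.5 CPM (log2 fold change 1.75, edgeR adjusted p = 0.000498), and Hsdl1 rose by 0.74 on the log2 scale. The groups overlapped for Hsdl1, and its call was lost without EV replicate 2 or 3 and without Sox4 replicate 1 or 2, in a range from 0.59 to 0.94.

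Of the other aldo-keto reductases, 1 of 7 was lower, 3 were higher and 3 were not called. Akr1d1, the 5β-reductase of bile acid and steroid hormone metabolism, fell from 238 ± 61.8 to 140.8 ± 24.7 CPM (log2 fold change -0.76, edgeR adjusted p = 0.0119), a call lost with library size alone. Akr1c13 rose from 99.9 ± 1.78 to 204 ± 29.9 CPM (log2 fold change 1.03, edgeR adjusted p = 0.000134). Akr1c19 rose from 72.7 ± 20.4 to 128 ± 23.8 CPM (log2 fold change 0.82). Akr1c12 rose from 66.1 ± 3.39 to 83.2 ± 6.11 CPM, and its log2 fold change of 0.33 lost the call without EV replicate 2 or 3 and without Sox4 replicate 2, in a range from 0.28 to 0.39. It shares 28.6% of its 50-base stretches with Akr1c13. The closest of the compared relatives of Akr1c6 in coding sequence, Akr1c20 at 92.3% identity, was not called, at 86.1 ± 1.36 and 79.5 ± 6.71 CPM, and shares 1.51% of its stretches with Akr1c6. Akr1c14, which reduces 3-ketosteroids, was at 409 ± 23.9 and 381 ± 55.4 CPM and was not called. For the 5α-reductases, neither Srd5a2 (2.61 ± 1.02 and 2.06 ± 0.882 CPM) nor Srd5a3 (11.4 ± 0.870 and 11.1 ± 1.35 CPM), which acts on polyprenol in protein glycosylation, was called, beside the lower level of Srd5a1.

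Of the listed relatives of Hsd17b6, 7 were tested, 4 of them lower, 1 higher and 2 not called. Most are retinol dehydrogenases, but Bdh1, which was not called, is not. Rdh7 fell from 1201 ± 45.1 to 351 ± 81.9 CPM (log2 fold change -1.77, edgeR adjusted p = 3.20e-05) and Rdh16f2 from 158 ± 17.1 to 12.3 ± 4.67 CPM (log2 fold change -3.68). Rdh9 rose from 5.75 ± 1.98 to 25.6 ± 4.12 CPM (log2 fold change 2.13, edgeR adjusted p = 6.87e-05). Rdh16 was lower by 0.66 on the log2 scale with overlapping groups, and its call was lost without EV replicate 1 or 2 and without Sox4 replicate 1 or 2, in a range from -0.89 to -0.49. Dhrs9, named although its mean count was under 100, was lower by 0.63 on the log2 scale, and its call was lost without the same libraries, in a range from -0.76 to -0.57. With library size alone Rdh16 and Dhrs9 were at -0.20 and -0.17 and neither was called.

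Enzymes that act before or after the dehydrogenases also differed in direction. Of 6 tested steroidogenic enzymes and electron donors, 2 were lower and 1 was higher. The donors Fdx1, a ferredoxin, and Cyb5a, cytochrome b5, fell from 88.1 ± 4.33 to 32.1 ± 9.34 CPM and from 860.5 ± 4.73 to 473 ± 83.5 CPM, and Por, the reductase that passes electrons to microsomal cytochromes P450, rose from 220.2 ± 25.1 to 356 ± 28.7 CPM (edgeR adjusted p = 0.00181). Of 8 liver steroid hydroxylases, 5 were lower and 2 higher. Cyp2d9, a testosterone 16α-hydroxylase, fell from 1941 ± 305 to 189 ± 79.9 CPM (log2 fold change -3.36, edgeR adjusted p = 6.63e-05). Cyp7b1, the oxysterol and steroid 7α-hydroxylase, fell from 151 ± 63.0 to 16.0 ± 9.31 CPM (log2 fold change -3.23). On the log2 scale Cyp3a13 fell by 2.02, Cyp3a11 fell by 1.50 and Cyp2a12 fell by 1.17. Cyp2a5 rose from 784 ± 74.8 to 1878 ± 843 CPM, and Cyp2a4, a testosterone 15α-hydroxylase, from 50.4 ± 52.3 to 848 ± 204 CPM. In EV 1 to 3 Cyp2a4 had 44, 1406 and 566 counts. Shared 50-base stretches were not counted for the Cyp genes, and how reads shared between relatives were assigned is not stated. The log2 fold change of Cyp2a4 was 4.07, from 3.50 to 5.23 with single libraries left out, and its call was lost without EV replicate 3 and without each Sox4 library. That of Cyp2a5 was 1.26, from 0.94 to 1.58, and its call was lost without Sox4 replicate 1.

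Of 4 tested genes of steroid sulfation, 3 were lower and 1 higher. Sult2a8, a sulfotransferase of bile acids and steroids, fell from 904 ± 144.6 to 10.4 ± 1.50 CPM, with edgeR giving -6.43 on the log2 scale (SE 0.18, adjusted p = 6.80e-08). The enzymes that make the sulfate donor moved apart: on the log2 scale Papss2 fell by 1.71 and Papss1 rose by 0.68. Among receptors and carriers 3 of 4 were lower and 0 higher. The estrogen receptor gene Esr1 fell from 33.8 ± 4.34 to 15.2 ± 1.80 CPM (log2 fold change -1.15, edgeR adjusted p = 0.000137). The mineralocorticoid receptor gene Nr3c2 fell by 0.46 on the log2 scale, a call lost with library size alone, without EV replicate 2 or 3 and without Sox4 replicate 2 or 3, in a range from -0.59 to -0.32 over single libraries left out.

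Other lipid droplet genes were listed for comparison with Hsd17b11 and Hsd17b13, and of 17 tested, 6 were lower, 3 higher and 8 not called. Plin2, the major droplet coat protein of hepatocytes, rose from 336 ± 36.6 to 1192 ± 513 CPM (log2 fold change 1.83, edgeR adjusted p = 0.000964), and Hilpda, an inhibitor of droplet lipolysis, rose from 2.11 ± 0.375 to 10.5 ± 2.80 CPM. Plin3, Fitm2, Bscl2, Aup1 and Lipe fell by 0.96, 0.89, 1.20, 1.05 and 1.04 on the log2 scale, in that order.

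Gene neighbours were listed to see whether genes near the 10 differed with them, using RefSeq order on GRCm38.p6 within 2 protein-coding genes on either side. Outside the 10 genes there were 28 such neighbours, of which 17 were tested, 7 were lower, 4 higher and 6 not called. Over all genes tested 26.0% were lower and 29.0% higher. Among these neighbours Rdh7, Akr1c12, Akr1c19 and Akr1c20 are also relatives counted in the lists above. Next to Hsd17b2, itself not called, Sdr42e1 fell from 131 ± 7.59 to 16.9 ± 0.280 CPM (log2 fold change -2.94, edgeR adjusted p = 1.23e-07), and Mphosph6 on the other side rose by 1.32 on the log2 scale. On 1 side of Hsd17b6 lie Sdr9c7 and Rdh7, both lower. Sdr9c7 fell from 83.1 ± 0.996 to 8.57 ± 0.314 CPM (log2 fold change -3.26) and Rdh7 as given above. On the other side Prim1, a primase subunit, rose from 2.42 ± 0.556 to 7.17 ± 0.579 CPM. Nudt9, beside Hsd17b11, fell by 1.31 on the log2 scale. Around Akr1c6, Akr1c12 and Akr1c19 were higher and Akr1c20 was not called. Beside Hsd11b1, G0s2, an inhibitor of lipolysis, was not called (13.5 ± 8.61 and 18.7 ± 10.9 CPM) and Lamb3 fell from 4.51 ± 1.65 to 1.57 ± 0.582 CPM. Near Srd5a1, Nsun2 fell by 0.58 and Tent4a fell by 0.51 on the log2 scale, less than Srd5a1 itself, though this difference was not tested.

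**Figure D5:**
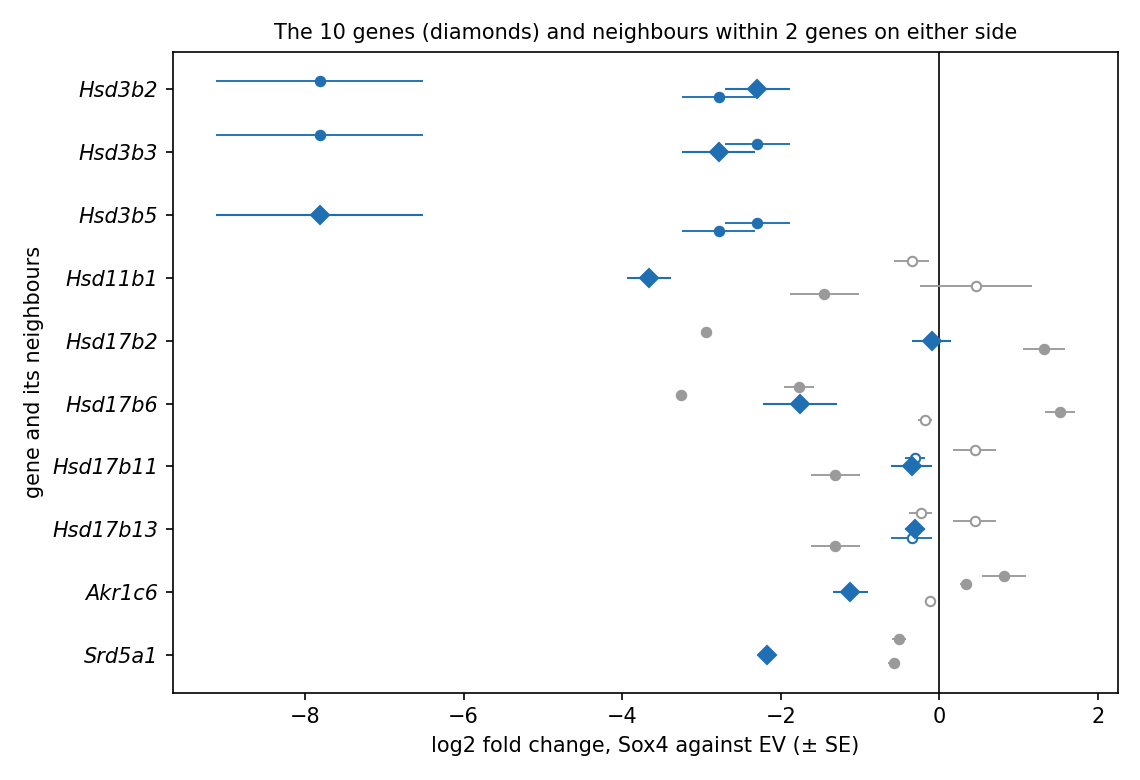
Log2 fold change of Sox4 against EV with its SE for each of the 10 genes (diamonds) and its tested protein-coding neighbours within 2 genes on either side (circles, blue where the neighbour is itself 1 of the 10). Filled circles had an edgeR adjusted p under 0.05; the 3 Hsd3b genes form a run of adjacent genes on the lower side, as do Rdh7, Sdr9c7 and Hsd17b6, and grey circles lie on both sides of 0.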

How the data were processed

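RNA-seq libraries of isolated mouse hepatocytes, 3 EV and 3 Sox4, were grouped by their labels. The authors aligned reads to GRCm39 with STAR and assigned them to genes with featureCounts 2.0.1, which gave the raw counts deposited. The annotation release, strand setting and treatment of multiply mapped reads are not given in the sources used here. A second deposited table, the counts over DESeq2 median-of-ratios size factors (a signal), served only as an alternative input.

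Analysis was done in R 4.3.3 (edgeR 4.0.16; limma 3.58.1; DESeq2 1.42.0). Genes passing filterByExpr (minimum count 10, minimum total 15) were scaled by TMM. The groups were compared by edgeR's quasi-likelihood test (robust) with Benjamini-Hochberg adjustment over 12691 genes and a threshold of 0.05. Log2 fold changes used a prior count of 2, and the SE is that of the difference of group means of log2 CPM. The fit was also run on simulated data in which few genes changed, balanced in direction. That setting differs from the wide changes here, so it does not test the scaling. Libraries of a group differed beyond counting noise (chi-square per degree of freedom 17.6 to 62.7), so each counted as 1 replicate, and p-values measure only the spread between these libraries. Each held 15090629 to 16964860 counts, and 3 counts equalled 0.150 to 0.231 CPM, a floor that covers counting error only.

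The 10 genes and all lists were chosen with earlier results of these data known. Also named were listed genes that passed and averaged 100 counts or more, genes of the same families, protein-coding neighbours and Sox4, with marker genes only in the check of cell types. Alternatives covered scaling, filtering, test, input values, prior count, a replicate block and single libraries left out. Gene lengths, overlaps and shared 50-base stretches came from GENCODE M21 and promoters and gene order from RefSeq, both on GRCm38.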

Additional observations from a re-analysis of the deposited data

How the results depend on the processing

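The counts of changed genes (6990), of the 10 genes called lower (7) and of other listed steroid enzyme genes called lower (16) and higher (9) stayed within 1.5 times under each alternative, except that 15 other enzyme genes were higher with library size alone. That scaling called 8092 genes, 79.9% of them higher against 52.7% with TMM, and moved the median log2 fold change of all genes from 0.04 to 0.50. It also turned Hsd17b2 to 0.37, Hsd17b11 to 0.12 and Hsd17b13 to 0.17. Division by the summed hepatocyte markers, mostly Alb and added after seeing the data, gave 0.50, 0.21 and 0.27 for the same genes. Of 150 planned values for the 10 genes, 142 kept their direction and their call or lack of one, 2 lost it, both Hsd17b6, 2 gained it, Hsd17b11 and Hsd17b13 without Sox4 replicate 3, and 4 reversed. The values at a prior count of 0.5 reuse the p-values of the main fit, so their calls could not change. Because the same contrast chose the 10 genes, this tally describes the processing and is no test of their differences. With single libraries left out, Hsd17b2 ranged from -0.26 to 0.11, changed genes from 6027 to 7269, the 10 genes called lower from 6 to 9, and other enzyme genes from 16 to 17 lower and from 6 to 10 higher. Replicate numbers are shared between groups, but nothing in the labels says what they mark, so the main fit assumed no pairing. Deviations of same-numbered libraries correlated at 0.27, -0.09 and 0.13, and those of differently numbered libraries at -0.27 to 0.18. The value of 0.27, for the libraries numbered 1, was the highest, and these values do not settle whether libraries were paired. With the replicate block 7362 genes changed, 7 of the 10 genes were lower, and 15 other enzyme genes were lower and 8 higher. Cyp7b1, Cyp2a4, Rdh16 and Reln lost their calls under the block. Depth limits Hsd3b5 in Sox4, where 1 library had 0 counts, and shared sequence limits the counts of the Hsd3b copies, since the handling of multiply mapped reads is not stated. The cause of these changes was not tested.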
